A study of Mus musculus with 20 samples.

Results

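The genes of the cytosolic ribosomal proteins were followed across 20 arrays of fibroblasts cultured from mouse embryos, which are primary cells of connective tissue. Members were the genes whose probe sets carry 1 symbol in the platform annotation, where that symbol starts with Rpl or Rps and a number, or is Rplp0, Rplp1, Rplp2 or Rpsa. Symbols of the Rps6k kinases and of pseudogenes ending in -ps were left out. The rule found 48 genes of 12394 with such a probe set, 26 of the large and 22 of the small subunit, represented by 100 of 22690 probe sets. Each gene was read from its brightest probe set over all arrays. A further 102 probe sets carry several symbols of which 1 is a ribosomal protein gene, and 30 ribosomal protein genes, among them Rpl3, Rpl5, Rpl26 and Rplp1, are named only by these and were not members.

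The fibroblasts were taken at 13.5 days post coitum, and the groups were wild type and E2F4 null. E2F4 is a transcription factor that, with the pocket proteins p130 and p107, sits at promoters of cell cycle genes. The wild type group had 3 embryos with 10 cultures (3, 3 and 4), the null group 5 embryos with 2 cultures each, and every culture had 1 array. The first number of a sample title was read as the embryo, which was the replicate between genotypes. The labels used here give no strain, sex, litter, passage or form of the deleted allele.

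A ribosome has a large and a small subunit, each built from ribosomal RNA and a set of proteins that are needed in about equal number. The small subunit decodes the mRNA, and the large subunit joins amino acids and carries a stalk of acidic proteins (Rplp0, Rplp1 and Rplp2) that calls in translation factors. The mRNAs of ribosomal proteins are among the most abundant of growing cells, and most begin with a C followed by further pyrimidines, the terminal oligopyrimidine tract, through which growth signals control their translation. A few genes encode minor paralogs, such as Rpl39l and Rpl3l, that are known for use in testis or muscle, and Rps27l, a target of p53.

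The annotated start sites were searched for such a tract in the RefSeq promoter table of GRCm38.p6, which held 50 windows for 42 of the 48 genes. A C with at least 4 pyrimidines after it stood exactly at the annotated start in 8 of 50 member windows (16%) and in 2.51% of all 32851 windows, and it began within 10 bases of the start in 28 (56.0%) against 29.7%. The stretches below cover 50 bases before the annotated start and 10 from it, on the strand of the gene, with the longest run of C and T in capitals. They are shown for genes whose signals are described further on.
Rps6, a small subunit protein and the classic target of the S6 kinases, chr4:86857358-86857417 (minus strand): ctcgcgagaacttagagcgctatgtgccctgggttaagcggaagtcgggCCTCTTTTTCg
Rpl38, a large subunit protein, chr11:114668530-114668589 (plus strand): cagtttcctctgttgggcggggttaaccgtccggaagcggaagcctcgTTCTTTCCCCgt
Rps10, a small subunit protein, chr17:27635235-27635294 (minus strand): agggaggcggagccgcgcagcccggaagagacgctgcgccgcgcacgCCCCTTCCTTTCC
Rps9, a small subunit protein, chr7:3703991-3704050 (plus strand): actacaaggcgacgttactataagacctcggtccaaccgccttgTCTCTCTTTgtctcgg
Rplp0, the base of the stalk, chr5:115559417-115559476 (plus strand): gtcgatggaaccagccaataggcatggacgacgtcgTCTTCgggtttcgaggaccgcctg
Rpl39l, the minor paralog of Rpl39, chr16:10170178-10170237 (plus strand): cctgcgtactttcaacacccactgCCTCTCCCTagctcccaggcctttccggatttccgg
Counting the annotated start as base 1 and the base before it as -1, the run of Rps6 went from -1 to 9, that of Rpl38 from -2 to 8, that of Rps10 from -3 to 10 and that of Rps9 from -6 to 3. The runs of Rplp0 and Rpl39l ended 10 or more bases before the annotated start, at -10 and -18.

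Over the whole window of 300 bases (250 before the start and 50 from it), searched on both strands, the GABP motif CCGGAAG was found in 21 of 50 member windows (42.0%) and in 8.86% of all windows. The SP1 motif GGGCGG was found in 52.0% against 35.7%, and the YY1 motif, AAGATGGC or CAAGATGG, in 12% against 3.62%. The E2F motif (TTTCCCGC, TTTCGCGC, TTTGGCGC or TTTGCCGC) was found in 2 member windows (4.0%), those of Rps3a1 and Rpsa, and in 2.26% of all windows. The E-box CACGTG was found in 10.0% against 7.15%, the NRF1 motif GCGCATGC in 4.0% against 2.71% and the TATA box TATAAA in 12% against 13.6%. The median GC content was 57.2% in member windows and 52.7% in all, and the GABP, SP1, E2F and NRF1 motifs are rich in G and C. A match describes the letters and is not a binding site.

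All arrays had been scaled to the same trimmed mean before deposit, which hides a change shared by all genes. In 2 arrays a control stood apart: the 18S control read 4572 in culture 1 of wild type embryo 2, against 60.3 to 769 elsewhere, and the ratio of the 3′ to the 5′ actin control was highest, at 1.25, in culture 2 of null embryo 4. The targeted gene, E2f4, read 214 ± 6.47 (SD) in the 3 wild type embryos and 166 ± 17.6 in the 5 null ones, a difference of -0.35 on the log2 scale (limma, SE 0.097, adjusted p = 0.363), and the part of the gene that was removed is not known here. The 14 fibroblast markers had mean signals from 257 (Dcn) to 23668 (Vim), with a median of 4233. Those of 12 macrophage and leukocyte genes ran from 14.1 (Aif1) to 1083 (Lyz2, median 128), of 7 endothelial genes from 4.83 (Tie1) to 315 (Flt1, median 18.8), of 7 epithelial genes from 6.08 (Epcam) to 272 (Krt19, median 30.2) and of 5 erythroid genes from 2.56 (Hbb-y) to 16.8 (Hba-x). The summed signal of 12 macrophage and leukocyte markers ran from 1988 to 3164 in wild type and from 1673 to 5446 in null embryos, and their part in the results below was not tested. In such bulk samples, fewer cells of a type and less RNA per cell cannot be told apart.

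Ribosomal protein genes were among the brightest on the arrays. Their median signal was 13992, against 182 over all genes, and 34 of 48 members lay among the 124 genes of the brightest 1%. These 34, with a mean log2(signal + 16) of 13 or more, are called the bright members below, and 99 other genes were as bright. The used probe sets of 36 members stood in the top 2% of all probe sets on each of the 20 arrays, and the 100 member probe sets together held between 5.35% and 6.35% of the summed signal of an array. The highest means belonged to Rpl38 (19541), Rps28, Rpl13a, Rps29 and Rps2. Signals of different probe sets are not calibrated against each other, so their order is one of brightness on the array, not of mRNA number.

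**Figure D1:**
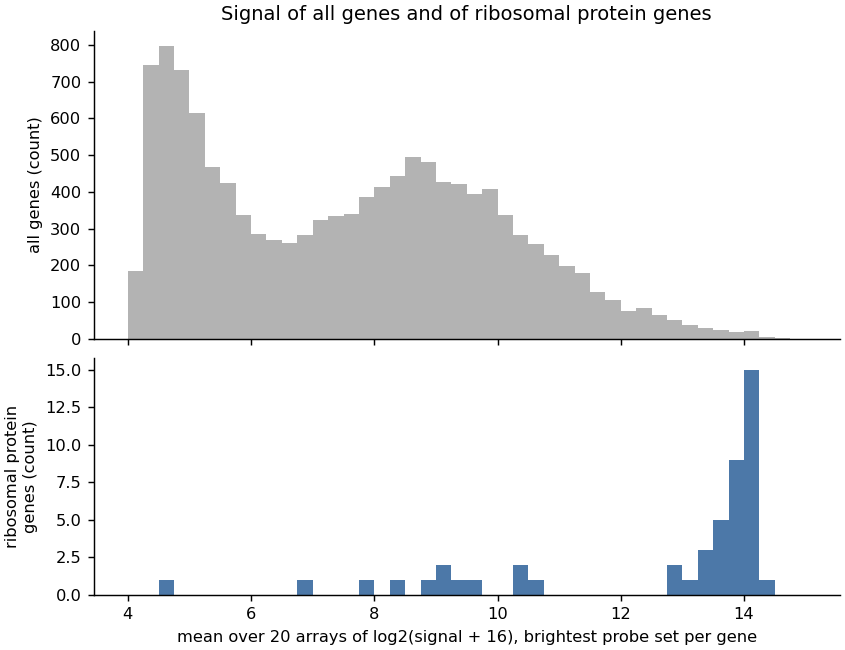
Number of genes by mean log2(signal + 16) over 20 arrays in bins of 0.25, for all 12394 genes (upper panel) and for the 48 ribosomal protein genes (lower panel, own count axis). 34 ribosomal protein genes lie at 13 or more, and the 14 others are spread down to Rpl3l at a signal of 8.94.

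Of the 14 members below that level, 6 were the minor paralogs. Rpl22l1 (8086), a paralog of Rpl22, and Rps27l (7868) were nearly as bright as the main genes, Rpl7l1 (1326), Rps4l (1325) and Rpl39l (439) were lower, and Rpl3l (8.94), the muscle paralog of Rpl3, fell under the filter on low signal and was not tested. The other 8 were Rpl37, Rps25, Rpl14, Rpl12, Rps6, Rpl27a, Rps27 and Rpl39, with signals between 101 and 1463 on their brightest probe set of 1 symbol. Each of these 8 is also named on a brighter probe set together with another symbol, at signals from 9736 to 20287. The low signals of these 8 genes therefore describe the probe sets that name them alone.

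No ribosomal protein gene passed the test between genotypes. Of 47 tested members, 0 had a limma adjusted p under 0.05, against 1 of 7436 genes (0.0134%). At an unadjusted p under 0.05, 2 members were higher in the null, Rps7 and Rpl14, where 3.95% of all genes were, and 2 were lower, Rps4l and Rpl39l, where 4.75% were. On the brightest probe sets, the 8 embryos fell into groups that did not overlap for Rps7 and Rpl7 as higher (2.95% of all genes) and for Rps4l as lower (3.71%). These shares of the members are near the background. On dimmer probe sets the groups were also apart for Rpl27 (0.20 and 0.22) and Rpl35 (0.13) as higher, and for Rpl37a (-0.13) as lower. On the brightest probe sets of these genes the groups overlapped. The share of all probe sets with groups apart is not given here.

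**Figure D2:**
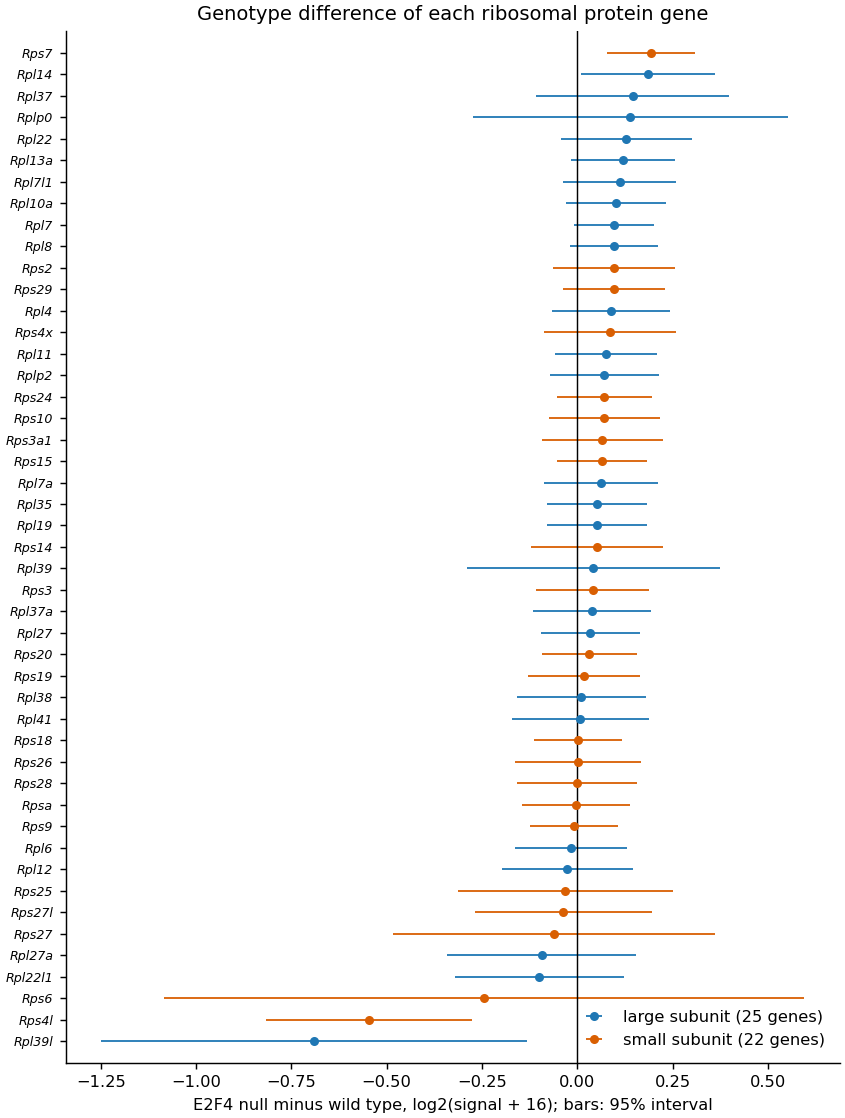
Difference between E2F4 null and wild type embryo means of log2(signal + 16) for the 47 tested ribosomal protein genes, ordered by size, with bars for the 95% interval of the limma fit (3 wild type and 5 null embryos) and colours for the subunit. Most points lie between 0 and 0.13 with intervals that include 0; the intervals of Rps4l and Rpl39l lie below 0 and those of Rps7 and Rpl14 above it.

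Among small subunit genes, Rps7, which is known to bind the p53 regulator Mdm2, read 12974, 12899 and 13421 in the wild type embryos and 14138, 15689, 14686, 15709 and 14731 in the null embryos. Each null embryo was above each wild type embryo. On the log2 scale this was a difference of 0.19 (SE 0.051, 95% interval 0.078 to 0.31), with a limma p = 0.00423 and an adjusted p = 0.360. A second Rps7 probe set of like brightness (13763 against 14060) differed by 0.07, and its groups overlapped. Rpsa, a protein of the small subunit also known as the laminin receptor, differed by -0.0037 (95% interval -0.15 to 0.14). Rps19, Rps14 and Rps3, of which the first is the gene most often mutated in Diamond-Blackfan anaemia, differed by 0.02 (-0.13 to 0.16), 0.05 (-0.12 to 0.22) and 0.04 (-0.11 to 0.19). The intervals of these 4 genes reached no further than 0.22 from 0.

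Among large subunit genes, Rpl7 read 14159, 14616 and 14514 in wild type and 15644, 16106, 15072, 15628 and 14747 in null embryos, with no overlap and a difference of 0.10 (SE 0.046; limma p = 0.0658, adjusted p = 0.608). On the other tested Rpl7 probe sets, at mean signals of 14841 and 10348, the groups overlapped. Rpl14 read 612, 548 and 594 against 624, 605, 702, 692 and 708, and 1 null embryo lay within the wild type range. Its difference was 0.19 (SE 0.078; limma p = 0.0417, adjusted p = 0.534). The next smallest p-values among genes that were higher were those of Rpl13a (0.12, SE 0.060), Rpl8 (0.10, SE 0.051) and Rpl10a (0.10, SE 0.058), with limma adjusted p between 0.617 and 0.673. Rpl11, which like Rps7 binds Mdm2, differed by 0.08 (95% interval -0.059 to 0.21), and the stalk protein Rplp2 by 0.07 (-0.072 to 0.21).

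The largest differences were those of the minor paralogs Rpl39l and Rps4l. Rps4l, a paralog of the X-linked gene Rps4x, read 1564, 1657 and 1502 in wild type embryos and 989, 1201, 1325, 966 and 934 in null embryos. The groups did not overlap, with the null lower, and their means were 1575 ± 78.1 (SD, n = 3) in wild type and 1083 ± 171 (SD, n = 5) in the null. The log2 difference was -0.55 (SE 0.12, 95% interval -0.82 to -0.27), with a limma p = 0.00135 and an adjusted p = 0.294. Rps4x itself differed by 0.09 (SE 0.076).
Rpl39l read 626, 581 and 433 in wild type and 239, 233, 397, 505 and 338 in null embryos, so that null embryo 4 lay inside the wild type range. The difference was -0.69 (SE 0.25; limma p = 0.0210, adjusted p = 0.456). Rpl39 differed by 0.04 (SE 0.15) at a signal near 101, and Rpl27a, another dim large subunit gene, by -0.09 (SE 0.11). Rpl22l1, Rps27l and Rpl7l1 differed by -0.10, -0.04 and 0.11, and Rpl22, whose protein is known to hold down Rpl22l1, by 0.13 (SE 0.076), all with limma adjusted p above 0.68. For Rps27l and Rpl22 the sign depended on the probe set. The other Rps27l probe sets differed by 0.10 each and the dimmer Rpl22 probe set by -0.09.

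As a set, members stood slightly above 0. The difference was above 0 for 34 of 47, where 49.0% of all genes were, and its median was 0.05, against -0.0031 over all genes. The 25 tested large subunit genes had a median of 0.06 with 20 above 0, and the 22 small subunit genes a median of 0.02 with 14 above 0. The bright members had a median of 0.06 with 30 of 34 above 0, and the 99 other genes of that brightness a median of 0.02 with 63 above 0. Under quantile normalization 25 of 47 members were above 0 with a median of 0.0060, and the small subunit median turned to -0.014. Without wild type embryo 1 the median of members was 0.0014 with 24 above 0, and without wild type embryo 2 it was 0.10 with 42 above 0. The sign of the small subunit median also turned without wild type embryo 1 (-0.022) and without the 2 arrays with outlying controls (-0.014), where 28 of 47 members were above 0 with a median of 0.02.

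On the deposited scale the bright members were high and low together from embryo to embryo, and quantile normalization reduced the range of their medians from 0.22 to 0.051. Their median deviation from each gene's mean was -0.12 in wild type embryo 1, 0.06 in wild type embryo 2 and -0.05 in wild type embryo 3. In null embryos 1 to 5 it was 0.05, 0.10, -0.05, 0.05 and -0.05. The lowest value of a gene fell in wild type embryo 1 for 26 of 34 bright members, and the highest in null embryo 2 for 20 and in wild type embryo 2 for 8. Of the 99 other bright genes, 44 were lowest in wild type embryo 1, 34 were highest in null embryo 2 and 34 in wild type embryo 2. Large and small subunit genes differed little in this, by -0.027 to 0.022 between their bright medians in any embryo. Over the 8 embryo means, the median correlation between 2 bright members was 0.74 (Pearson, 561 pairs), against 0.46 for pairs of the 99 other bright genes, which share the same arrays and scaling.

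**Figure D3:**
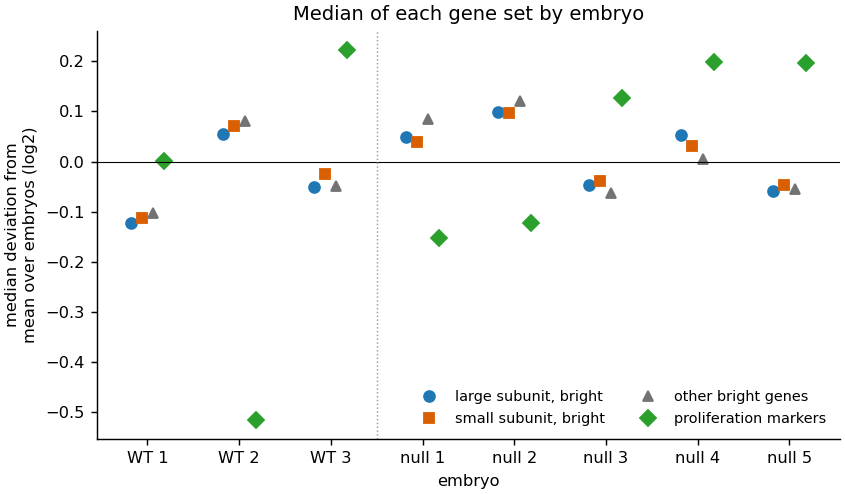
Median deviation from the gene's mean over the 8 embryos (log2) in each embryo, for the bright large subunit genes (circles), the bright small subunit genes (squares), the 99 other genes of that brightness (triangles) and 18 proliferation markers (diamonds). On the deposited scale the first 3 sets move together, from about -0.1 in wild type embryo 1 to about 0.1 in null embryo 2, and the proliferation markers are lowest in wild type embryo 2 at -0.52.

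Other values were read beside this pattern, and not all of them moved with it. The median of the 99 other bright genes was -0.10, 0.08 and -0.05 in the wild type embryos and 0.08, 0.12, -0.06, 0.0043 and -0.05 in the null embryos. The signal at the 99th percentile of an array averaged 9878 in wild type embryo 1, 10882 in wild type embryo 2 and 11297 in null embryo 2. In null embryo 4 the cultures differed, with bright member medians of -0.09 and 0.19 and 99th percentiles of 9860 and 11291. After quantile normalization, which sets the distributions of the arrays equal, the bright member medians lay between -0.024 and 0.027 over the 8 embryos. The median correlation between 2 bright members was then 0.18, against 0.74 as deposited. For the 99 other bright genes it was -0.0096, against 0.46 as deposited. In the bright members, the embryos lowest and highest as deposited, wild type 1 and null 2, then stood at 0.0074 and -0.019. Proliferation markers stood at 0.0012, -0.52 and 0.22 in wild type and -0.15, -0.12, 0.13, 0.20 and 0.20 in null embryos, and their part was not tested. Xist, the RNA of the inactive X chromosome, read 37.9 in wild type embryo 2 and 3070 and 2983 in wild type embryos 1 and 3, and 47.1 and 30.5 in null embryos 2 and 3 against 2218 to 2299 in the other null embryos. Wild type embryo 2, which stands apart in many of the comparisons that follow, was thus the only wild type embryo low in Xist, and the part of this in the embryo differences was not tested.

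**Figure D4:**
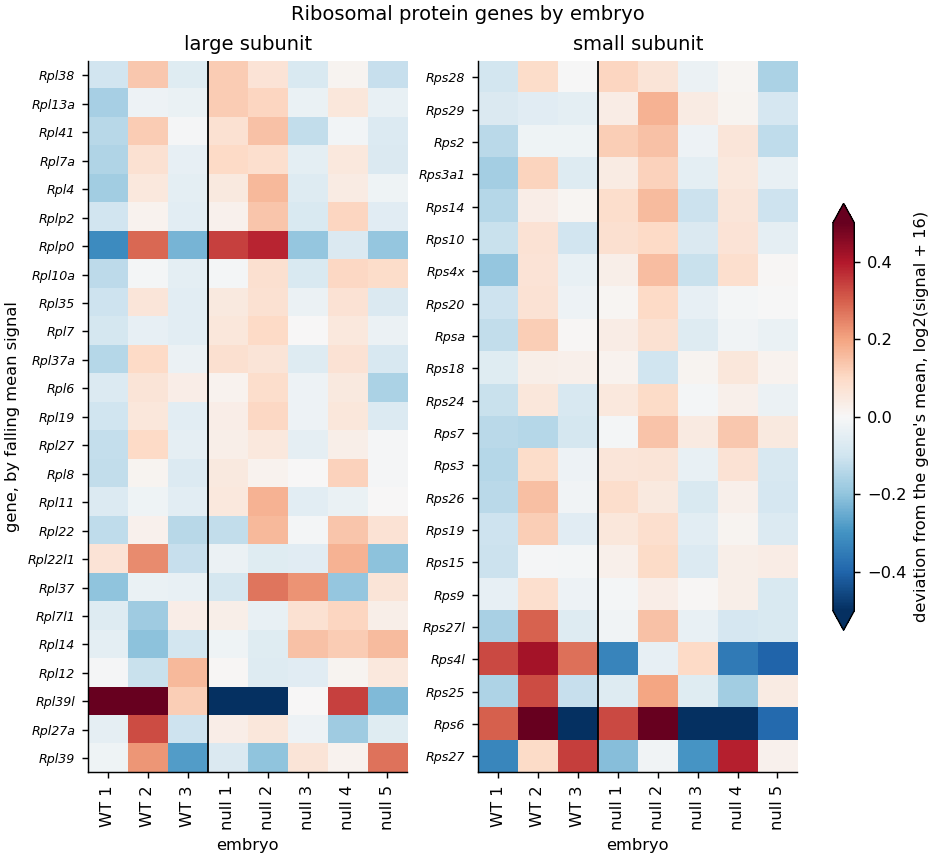
Deviation of each tested ribosomal protein gene from its mean over the 8 embryos, log2(signal + 16), for large (left) and small subunit genes (right) ordered by falling mean signal; colours are cut at -0.5 and 0.5, and a line parts wild type from null embryos. The bright genes at the top share faint colours by embryo, while Rplp0, Rpl39l, Rps4l and Rps6 have strong patterns of their own.

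The SD between embryos of 1 genotype had a median of 0.092 over the tested members, against 0.14 over all genes, and that between cultures of 1 embryo a median of 0.089 against 0.12. Among genes of like brightness the medians were 0.086 for bright members and 0.11 for the 99 others between embryos, and 0.086 and 0.081 between cultures. The smallest SD between embryos was that of Rpl7 (0.043) and the largest that of Rps6 (0.62). Between the 3 wild type embryos, 23 of 47 members differed by the limma F test over cultures at an adjusted p under 0.05, where 50.1% of all genes did. Between the 5 null embryos 4 of 47 differed, where 22.9% did. Without wild type embryo 2 the count in wild type was 2 (1121 of 7436 genes), and without wild type embryo 1 it was 13 (3389 genes). The 4 in null embryos were Rps6, Rpl39l, Rplp0 and Rps4l, and the count was 10 without null embryo 4 (1474 of 7436 genes). Rpl22, a large subunit protein, followed with an F of 4.01 (limma, adjusted p = 0.0872). Rps6, Rpl39l and Rplp0 passed in both genotypes, where 19.0% of all genes did.

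Rps6 had the largest F of the members in each genotype. Its single-symbol probe set read 690, 665 and 667 in the cultures of wild type embryo 1, then 950, 910 and 892 in wild type embryo 2, then 341, 364, 382 and 355 in wild type embryo 3. Null embryos 1 to 5 read 678 and 700, then 876 and 962, then 360 and 369, then 386 and 335, and last 418 and 408. Cultures of 1 embryo lay close together, and the embryos fell at 3 levels, with wild type 2 and null 2 highest, wild type 1 and null 1 between, and the other 4 lowest. The F was 215 between wild type embryos (limma, adjusted p = 2.9e-09) and 72.5 between null embryos (adjusted p = 1.9e-06), and the difference between genotypes was -0.24 (95% interval -1.1 to 0.60). The 4 brightest probe sets that the annotation gives to both Rps6 and the pseudogene Rps6-ps4, at 14673 to 19102, spanned 0.26 to 0.35 on the log2 scale over the 8 embryos. The single-symbol probe set spanned 1.31 within each genotype. Dimmer probe sets of both symbols, at 453 to 2533, spanned 0.67 to 0.97 over the 8 embryos, with null embryo 4 or 5 highest.

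Rplp0, the base of the stalk and a common reference gene in quantitative PCR, was bright and yet uneven. It read 13388, 20276 and 14172 in the wild type embryos and 21062, 21696, 14570, 15897 and 14540 in the null embryos. Wild type embryo 2 and null embryos 1 and 2 were the high ones, and the genotype groups overlapped throughout, with a difference of 0.14 (SE 0.18, 95% interval -0.27 to 0.55). The F was 74.1 between wild type embryos (limma, adjusted p = 7.4e-07) and 18.1 between null embryos (adjusted p = 0.000737). Without wild type embryo 2 the remaining wild type embryos gave an adjusted p = 0.364. Rplp0 has 1 probe set, so no other reading of it was available among the members.

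Rpl39l differed between wild type embryos with an F of 16.3 (limma, adjusted p = 0.000974) and between null embryos with an F of 31.5 (adjusted p = 7.1e-05). Its cultures in null embryos 1 and 2 read 228, 249, 236 and 230, below the 314 to 512 of the other null cultures. Without wild type embryo 3 the wild type test gave an adjusted p = 0.449. Rps4l differed between null embryos with an F of 7.37 (adjusted p = 0.0182), and 0.123 without null embryo 3, which was the highest of them. Rps27l was high in wild type embryo 2, at 9593 against 6988 and 7506, with an F of 22.6 (adjusted p = 0.000243), and Rps4x had an F of 11.7 (adjusted p = 0.00346), with 15084, 18103 and 16793.

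**Figure D5:**
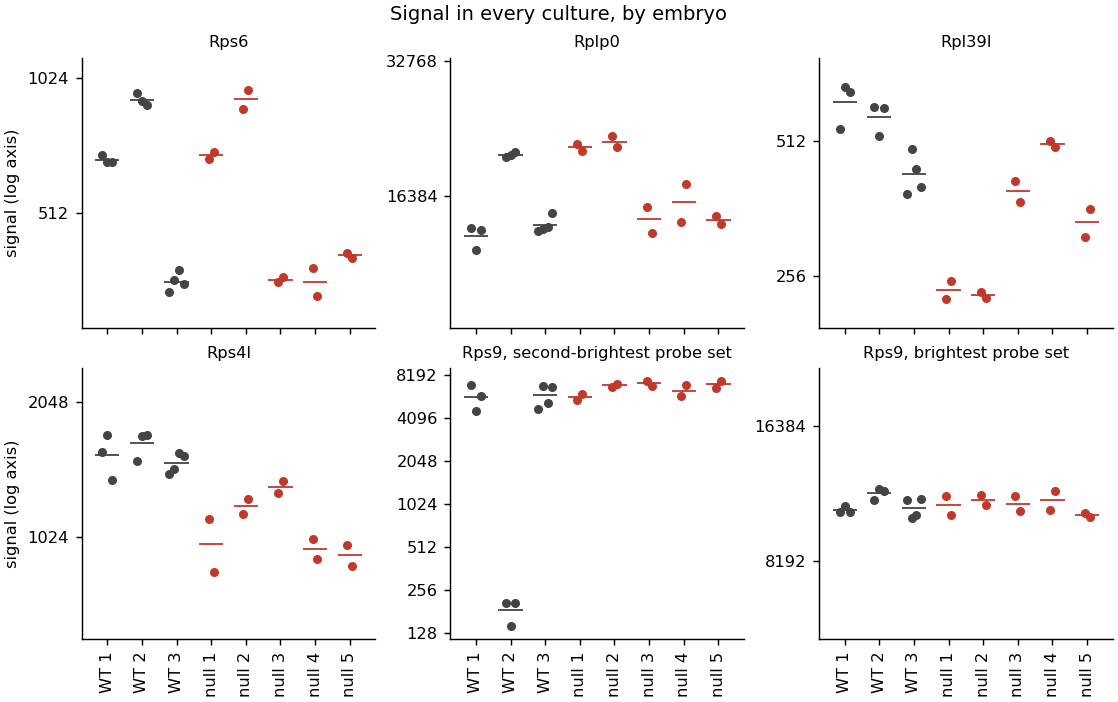
Signal in each culture (points, logarithmic axis with its own range in each panel) and the mean of each embryo (line), wild type in dark grey and E2F4 null in red, for Rps6, Rplp0, Rpl39l, Rps4l and 2 probe sets of Rps9. Cultures of an embryo cluster; wild type embryo 2 lies near 186 on the second-brightest Rps9 probe set, where the other embryos lie between 5756 and 7203, and is not apart on the brightest one.

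Probe sets of the same gene did not always give like values, and some of the exceptions lay in wild type embryo 2. Of 19 members with several tested probe sets, 13 had genotype differences within 0.15 of each other, 8 had both signs, and 2 spanned more than 0.3, Rps9 and Rps10. The limit of 0.15 is wider than the median member difference of 0.05. For Rps9 the brightest probe set read 10620, 11598 and 10763 in wild type embryos and between 10376 and 11195 in null embryos. The second-brightest probe set read 5811, 186 and 5936 in the wild type embryos and 5756, 6997, 7203, 6424 and 7102 in the null embryos. The 3 cultures of wild type embryo 2 were at 207, 142 and 208, and the lowest other culture was at 4584. The F between wild type embryos was 552 when every probe set was tested (limma, adjusted p = 7.0e-11). The dimmest probe set read 241, 122 and 288 in wild type and 224 to 316 in null embryos, with wild type embryo 2 again lowest. The difference between genotypes was -0.0088, 1.82 and 0.41 on the 3 probe sets in order of falling brightness, and none had a limma adjusted p under 0.62.

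Wild type embryo 2 was also among the low ones on single probe sets of other members. The dimmest tested Rps10 probe set read 8425, 5972 and 9732 in wild type and 7787, 10895, 10048, 10576 and 10000 in null embryos, while the brightest Rps10 probe set read 18749 in that embryo, the highest of the 3 wild type embryos. The dimmest Rpl41 probe set read 259, 144 and 293 against 260 to 281 in null embryos. The dimmer of the Rpl22 probe sets was low in null embryos 1 and 2 (446 and 533) and in wild type embryo 2 (564), and read 674 to 781 elsewhere. Over every probe set, 40 of 87 member probe sets differed between wild type embryos, where 46.6% of all probe sets did, and 6 of 87 between null embryos, where 18.5% did.

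The genes that make and use ribosomes gave no call between genotypes either. Over all genes tested 49.0% had a difference above 0, with a median of -0.0031. Among 56 ribosome biogenesis genes, which process ribosomal RNA and assemble the subunits, 0 passed and 44 were above 0, with a median of 0.10. Wdr12 (0.24) and Gnl3 (0.19) had the smallest p-values there, with limma adjusted p of 0.456 and 0.556. The 21 translation factors and other mRNAs with a terminal oligopyrimidine tract had a median of 0.04 with 14 above 0, led by Nap1l1 (0.23) and Naca (0.15). The 74 mitochondrial ribosomal protein genes, which serve the separate ribosome of mitochondria, had a median of 0.06 with 53 above 0, and Mrps36 (0.27) and Mrps5 (0.34) had adjusted p of 0.360 and 0.363. RNA polymerase I and its factors (12 genes, Polr1e 0.15 and Polr1a 0.12) had a median of 0.02, and translation control and growth signalling genes (16 tested, Eif2ak3 -0.18 and Eif4ebp1 0.18) a median of 0.03. In each list 0 genes were called, with an unadjusted p under 0.05 for 3 biogenesis, 3 tract, 5 mitochondrial, 0 polymerase and 1 control gene. Of all genes 3.95% were higher and 4.75% lower at that level.

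The lists of cell types and of proliferation had 0 calls as well. Of 18 tested proliferation markers 16 were above 0, where 49.0% of all genes were, with a median of 0.13 (Bub1b 0.27, Aurkb 0.29). Between wild type embryos 18 of these markers differed, where 50.1% of all genes did. Between null embryos 15 differed, where 22.9% of all genes did. The 14 fibroblast markers had a median of -0.08 with 5 above 0 (Pdgfrb 0.20, Fn1 -0.18). All 9 tested macrophage and leukocyte markers were above 0, with a median of 0.34 and limma adjusted p of 0.762 or more (Laptm5 0.35, Cd14 0.32). Endothelial markers (2 of 7 tested, Eng 0.24 and Flt1 -0.28) and epithelial markers (2 of 7 tested, Krt19 0.51 and Krt18 0.38) gave no call, and 0 of the 5 erythroid markers reached the filter.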

How the data were processed

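The deposited values were signal intensities on a linear scale, produced by the authors using MAS5, as named in the submitters' processing notes (for version and scaling target: not given in the sources used here). Every array had the same 2% trimmed mean of these intensities. Of 20393 probe sets with 1 symbol, 20364 were matched to the RefSeq gene table of GRCm38.p6 to update symbols. Intensities were converted to log2(signal + 16), a scale that understates the change of low genes, and averaged over the cultures of an embryo. A filter at the 40th percentile of signal kept 7436 genes. The genotype test was limma 3.58.1 (R 4.3.3; lmFit and eBayes with trend; two-sided) over 8 embryo means, and embryos of 1 genotype were compared by limma's F test over cultures; adjusted p-values are Benjamini-Hochberg values over all genes tested. Nothing in the labels says how cultures were separated, so the F tests measure the spread between these arrays. On simulated data for the genotype comparison with 7436 genes, 1 of 50 genes changed by 0.25 (log2) was called, 21 of 50 changed by 0.5 and 41 of 50 changed by 1, with 6 false calls among 118. The changed genes were drawn from all genes tested. Their spread between embryos already held the spread between cultures, which was then added again. These shares are therefore not those for the members.

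The members, lists and tests were chosen with earlier results of these data known. Named members were those with the 6 smallest p each way, the 5 largest F per genotype, and the 5 brightest and 5 dimmest. Minor paralogs, a fixed set of roles, and members whose probe sets differed were named too. Rpl41 probe sets and the Rps7, Rpl7, Rps18, Rps27l, Rpl22, Rps10, Rpl27, Rpl35 and Rpl37a readings by probe set were chosen after their values were seen. Alternatives covered the pseudocount, filter, scaling, probe sets, blocks and each embryo left out.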

Additional observations from a re-analysis of the deposited data

Results flagged for a closer look

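Of 47 tested members, 2 had a null embryo set apart from the other 4 by Dixon's test of the gap to the nearest value over the range, which chance gives in about 1 group in 20. Rps18, a small subunit protein, had null embryo 2 lowest, at a signal of 15416 against 16596 to 17125 in the others (a ratio of 0.725 on the log2 scale). Rps27l had null embryo 2 highest, at a signal of 8661 against 7379 to 7723 (0.71 on the log2 scale). Null embryo 2 was the highest embryo for 20 of the 34 bright members and for 34 of the 99 other bright genes. Its low Rps18 value came from culture 2, at 13863 against 16970 in culture 1. On the other bright Rps18 probe sets null embryo 2 was not lowest. It read 12417 on one (11590 to 13371 in the other null embryos) and 12055 on another (11113 to 12077).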

How the results depend on the processing

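Over 20 alternatives, 0 members passed between genotypes in all but a fit over cultures with a random embryo term. Rps4l passed there (1 member, -0.54, limma adjusted p = 0.0124). The number of all genes that passed in that fit is not given here, so whether Rps4l stood out cannot be told. The adjusted p of Rps4l ran from 0.0124 to 0.695 over the alternatives. The count of members higher at an unadjusted p under 0.05 was 2 as reported. It was 7 when every probe set was tested, from 87 member probe sets in place of 47 members. The share of all probe sets at that level is not given here, so that rise does not describe the members. The count was 1 with the culture number as a replicate block and 1 to 3 with each embryo left out. The count of lower ones was 1 to 2 with each embryo left out. With the embryo number as a replicate block 0 were called, the median was 0.06 and the Rps6 difference went from -0.24 to 0.02 (adjusted p = 0.972). Same-numbered wild type and null embryos correlated at 0.064, 0.63 and 0.45 in their deviations, and not every embryo correlated best with its own number (wild type embryo 1 did so with null embryo 4), so the numbers were not taken as pairs. Members that differed between wild type embryos (23) numbered 10 under quantile normalization and 2 to 29 with each embryo left out. Those that differed between null embryos (4) numbered 7 under quantile normalization, 8 without the 2 arrays with outlying controls (highest 18S control, highest actin ratio; chosen after seeing the data) and 3 to 10 with each embryo left out. As reported, 50.1% of all genes differed between wild type embryos and 22.9% between null embryos. Those shares also changed with an embryo left out, and they are not given for quantile normalization or without the 2 arrays. These counts alone therefore do not describe the members. The cause was not tested. The median difference stayed between 0.0014 and 0.10, and leaving out the minor paralogs, also added later, gave 0.05. The shared pattern of bright members over embryos, tried later under quantile normalization, shrank to a range of 0.051 from 0.22. The number of embryos limits the precision.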
